A study of Mus musculus with 6 samples.

Results

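Thermogenic and browning genes are genes of brown and beige fat, some of which serve heat production. Here 10 of them were followed in white fat: Ucp1, Ucp2, Ucp3, Ppargc1a, Ppargc1b, Prdm16, Dio2, Elovl3, Cox7a1 and Kcnk3. Members were all probe sets of an Affymetrix MOE430v2.0 array that the platform annotation gives to one of these genes alone. That rule found 21 of 45037 probe sets, for 9 of the 10 genes, out of 18193 genes named on the array. Ucp2 had no probe set under its single symbol and was not analysed here. The RNA came from white adipose tissue of the epididymal pad. The mice were males aged 10 weeks, with C57BL6;129Sv given as their background. They were either Pparg ldi/+, with 1 copy of an allele that the labels tie to lipodystrophy, or litter-matched wild type (WT), and each group held 3 mice with 1 array per mouse. The labels do not say how the ldi allele was made or in which cells of the pad it acts.

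In brown and beige adipocytes, noradrenaline acts through cAMP to release fatty acids and to raise Ucp1, whose product lets protons leak across the inner mitochondrial membrane so that fuel is burned as heat. The coactivators encoded by Ppargc1a and Ppargc1b, known as PGC-1 alpha and PGC-1 beta, drive mitochondrial biogenesis, and PRDM16 holds the brown adipocyte programme in place together with PPARG, the receptor altered in these mice. Epididymal fat is among the depots of the mouse in which brown-like cells are scarcest.

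The sequences just before the start sites of member genes were searched for exact copies of short elements for nuclear receptors and for cAMP. Such a search does not settle which genes respond to these signals. Of the 9 genes, 6 had an entry in the RefSeq promoter table of build GRCm38.p6, and the 250 bases before the start are shown for 4. Cox7a1 is shown because it rose, Ucp3 because it fell, Ucp1 because it defines the thermogenic adipocyte and Dio2 because it holds the full cAMP element. Capitals mark the motifs found, and all sequences read 5' to 3' on the gene's strand.
Cox7a1, chr7:30183921-30184170, plus strand: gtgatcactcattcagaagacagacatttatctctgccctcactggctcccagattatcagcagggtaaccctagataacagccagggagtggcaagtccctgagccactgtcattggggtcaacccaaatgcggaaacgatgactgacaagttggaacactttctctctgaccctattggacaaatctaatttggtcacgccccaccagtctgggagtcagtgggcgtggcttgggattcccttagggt
Ucp3, chr7:100472741-100472990, plus strand: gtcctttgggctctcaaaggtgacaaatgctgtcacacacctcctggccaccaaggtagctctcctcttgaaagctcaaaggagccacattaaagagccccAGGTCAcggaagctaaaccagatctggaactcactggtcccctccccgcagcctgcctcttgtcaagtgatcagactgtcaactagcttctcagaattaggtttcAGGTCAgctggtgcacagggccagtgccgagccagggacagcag
Ucp1, chr8:83290098-83290347, plus strand: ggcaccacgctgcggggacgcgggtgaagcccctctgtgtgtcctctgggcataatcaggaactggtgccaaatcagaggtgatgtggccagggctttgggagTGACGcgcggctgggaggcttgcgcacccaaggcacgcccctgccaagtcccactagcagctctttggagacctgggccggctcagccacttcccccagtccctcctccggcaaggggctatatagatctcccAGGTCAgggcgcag
Dio2, chr12:90739039-90739288, minus strand: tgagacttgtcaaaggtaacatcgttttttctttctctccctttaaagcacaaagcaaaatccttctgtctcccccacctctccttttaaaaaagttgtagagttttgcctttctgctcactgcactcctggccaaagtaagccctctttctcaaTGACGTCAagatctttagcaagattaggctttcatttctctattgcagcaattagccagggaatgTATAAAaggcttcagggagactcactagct
Both strands were searched for the nuclear receptor half-site AGGTCA, the direct repeat of AGGTCA with 1 base between the copies, bound by PPARG with its partner RXR, the element TCAAGGTCA of oestrogen-related receptors, the cAMP response element TGACGTCA, its half-site TGACG, which the full element contains, and the TATA box TATAAA. The half-site AGGTCA lay at -149 and -44 in Ucp3 and at -14 in Ucp1, counted from the start site to the first base of the match, and at least 1 copy was found in 14.0% of 32851 promoters of the same length. Dio2 held the full cAMP element at -95, which 1.55% of promoters hold, and a TATA box at -30, which 12.4% hold. In Dio2 the cAMP half-site was found inside the full element. Ucp1 held it at -147 and Ppargc1a held it at -49 on the other strand, and 17.8% of promoters hold it. None of these motifs was found in the 250 bases of Cox7a1 or Prdm16, and 0 of the 6 promoters held the direct repeat (0.0335% of all) or the TCAAGGTCA element (0.387% of all). The start is that of the promoter table. For Prdm16 and Ppargc1a it lies inside the RefSeq gene model, whose outermost starts are at positions 154637360 of chromosome 4 and 52115853 of chromosome 5, so other starts of these genes, like enhancers farther away, were not searched.

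Pparg itself fell 2.56-fold in Pparg ldi/+ fat, from scaled signals of 4378, 4440 and 4998 in the WT arrays to 1732, 1709 and 1901 (limma adjusted p = 1.04e-05). A scaled signal is the deposited linear signal multiplied so that each array has the same trimmed mean. Of 10 white adipocyte markers, led by Fabp4 and Lpl and including Pparg itself, 7 fell and the others did not pass. Of all tested genes, 16.4% fell. The summed signal of the 10 markers was 174669 to 194452 in WT and 102919 to 112545 in Pparg ldi/+. All 20 macrophage markers rose, where 16.3% of all tested genes did. They were led in brightness by Lyz2 and Csf1r, with sums of 49993 to 66410 and 143873 to 147618. Endothelial markers, led by Esam and Cldn5, summed to 23514 to 24844 and 11633 to 14586, and lymphocyte markers, led by Il7r and Cd22, to 762 to 1189 and 2894 to 3866. In a bulk sample, fewer cells of a type and less RNA per cell cannot be told apart. Markers of the epididymis, led by Lcn8 and Gpx5, summed to 23605 and 32235 in Pparg ldi/+ arrays 1 and 2, but to 855 in array 3 and 777 to 1553 in WT, so each member's difference is also given for Pparg ldi/+ array 3 alone against the 3 WT arrays. The part of these other cells and tissues in the members' differences was not tested.

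**Figure D1:**
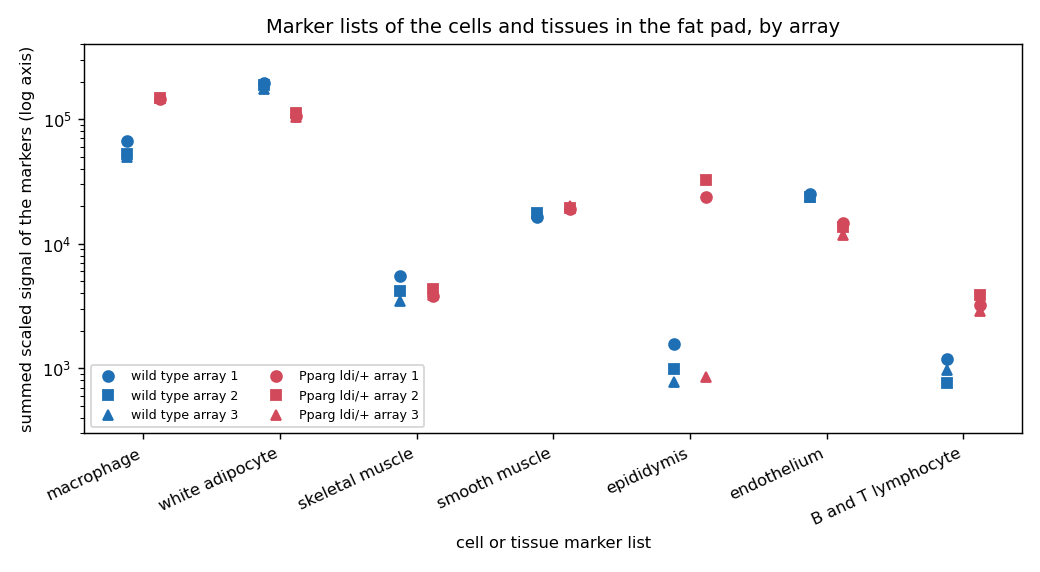
Summed scaled signal of 7 marker lists (log axis) on each of the 6 arrays, 1 point per array, with WT in blue and Pparg ldi/+ in red. Macrophage sums were at least 143873 on every Pparg ldi/+ array, and epididymis markers were high on Pparg ldi/+ arrays 1 and 2 only.

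Among the members, Cox7a1 and Kcnk3 rose and Ucp3 fell in Pparg ldi/+ fat. The coactivator genes, Prdm16 and Dio2 did not pass the test, and Ucp1 and Elovl3 were too dim to be tested. A gene counted as dim when the probe set read for it had a mean log2 value under 7.46, the median of all probe sets, which corresponds to a scaled signal of 145. Of the 7 genes tested, 2 rose and 1 fell, where 16.3% of all 11201 tested genes rose and 16.4% fell, 32.7% together. A count of 3 out of 7 against that background is not a result about the members as a group. Probe set by probe set, 11 of the 21 were bright enough, and 3 rose and 2 fell (2 and 2 leaving out 1425342_a_at of Kcnk3, whose WT mean lay under the filter level), while 29.0% of 22519 tested probe sets passed in either direction. The member probe sets lay between percentiles 11.0 and 81.9 of brightness, with a median of 50.9. Their median log2 difference, dim sets included, was 0.14, and that of all probe sets without the filter was 0.01. In 10 of the 21 the groups did not overlap, 5 of them among the dim, where 44.4% of bright and 15.2% of dim probe sets of the array showed this. For a single probe set, an exact two-sided permutation test of 3 against 3 arrays cannot go below p = 0.1, which it gave for each of those 10.

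Without the filter, all 9 genes and 21 probe sets entered the fit. Ucp1 then joined Cox7a1 and Kcnk3, so that 3 genes rose, where 9.73% of 18193 genes did, and Ucp3 fell, where 9.2% did. Of the 21 probe sets 5 rose (6.84% of all) and 2 fell (6.48%), the added rises being those of Ucp1 and the dim probe set of Kcnk3. With Pparg ldi/+ array 3 alone and the filter kept, Cox7a1 and Kcnk3 rose, where 6.54% of genes rose and 7.94% fell, 14.5% together, and 3 member probe sets passed, where 12.1% of all did.

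**Figure D2:**
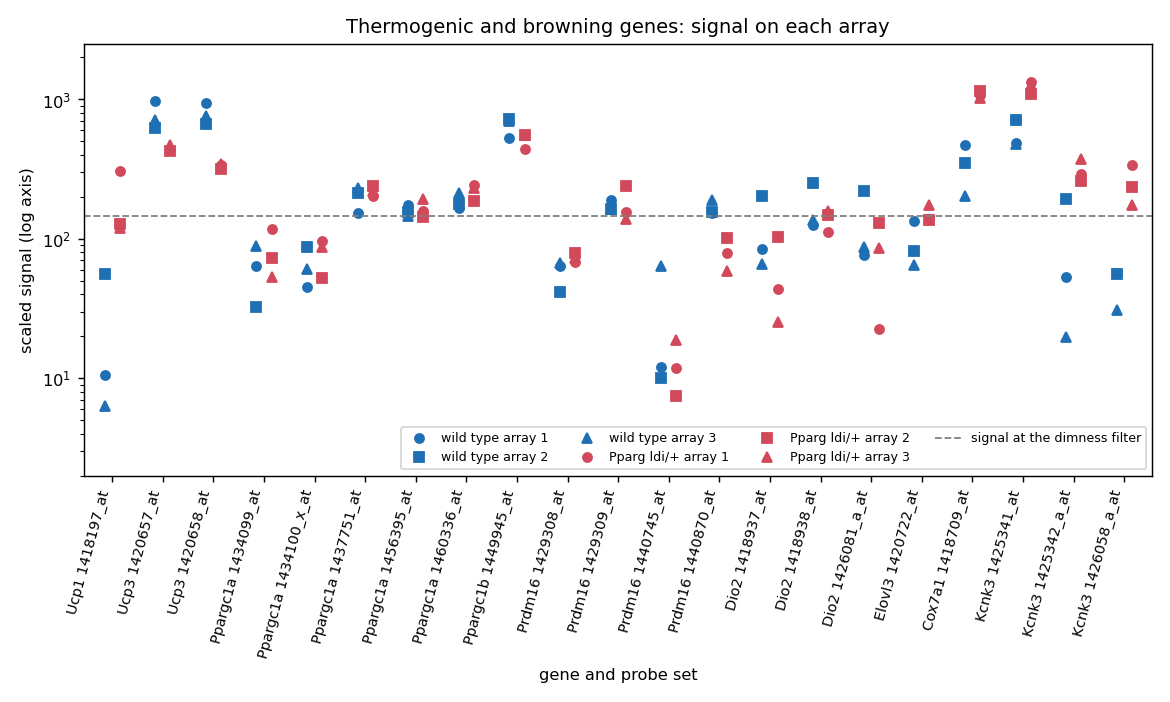
Scaled signal (log axis) of each of the 21 member probe sets on the 6 arrays, with WT arrays in blue on the left and Pparg ldi/+ arrays in red on the right of each position, and the filter level of 145 as a dashed line. The Cox7a1 points and those of the 3 Kcnk3 probe sets lie higher in Pparg ldi/+ and both Ucp3 probe sets lie lower, with no overlap of the groups.

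Ucp1 encodes the uncoupling protein that defines brown and beige adipocytes. Its 1 probe set, 1418197_at, read 10.5, 56.1 and 6.38 in WT and 308, 127 and 120 in Pparg ldi/+. Every Pparg ldi/+ array lay above every WT array, but 5 of the 6 values lay under the filter level of 145, and only Pparg ldi/+ array 1 lay above it. The means were 24.3 ± 27.6 and 185 ± 107 (SD, n = 3), a log2 difference of 1.95 on the scale of log2(signal + 32), and as a dim gene it was not tested. With no filter on dim genes the difference passed (limma SE 0.427, 95% confidence interval 0.96 to 2.93, adjusted p = 0.0150). The size depends on the amount added before the logarithm, since it was 1.16 with 100 added and 2.40 with 16. With Pparg ldi/+ array 3 alone, the array low in epididymal markers, the difference was 1.53.

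Ucp3 encodes an uncoupling protein relative found mainly in skeletal muscle and brown fat, where it is tied to fatty acid use rather than to heat. The probe set read for the gene, 1420657_at, gave 968, 621 and 708 in WT and 435, 427 and 470 in Pparg ldi/+. The groups did not overlap, and the WT arrays spread more widely than the Pparg ldi/+ arrays, with SDs of 181 and 22.9. Ucp3 fell 1.65-fold (log2 difference -0.72, SE 0.158, 95% confidence interval -1.08 to -0.36, limma adjusted p = 0.00829). The second probe set, 1420658_at, gave 945, 671 and 757 against 340, 315 and 345, a fall of 2.23-fold (limma adjusted p = 0.000336 in the fit of probe sets). With Pparg ldi/+ array 3 alone the call of the gene ended, at -0.64 (limma adjusted p = 0.144), while the second probe set still fell, at -1.11 (limma adjusted p = 0.0177 in the fit of probe sets). Skeletal muscle markers, led by Myl1 and Acta1, did not separate the groups as a whole: their sum was 3468 to 5498 in WT and 3772 to 4330 in Pparg ldi/+, and 8 of 16 lay under the filter level on all 6 arrays. Of the 6 that were tested, Eno3 rose 4.47-fold and Myl1 fell 3.30-fold. Pvalb passed the test as well, but its WT values of 69.6 to 128 all lay under the filter level, so it was tested only because of its Pparg ldi/+ values. The myosin heavy chain genes that define muscle fibres, Myh1, Myh2, Myh4 and Myh7, lay between 4.26 and 68.1 on all 6 arrays, under the filter level.

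The transcriptional regulators showed no difference past the threshold. Ppargc1a, induced by cold and by cAMP in brown fat, read 154, 213 and 231 in WT and 204, 240 and 219 in Pparg ldi/+ in its brightest eligible probe set, 1437751_at. The groups overlapped, and the log2 difference of 0.14 had a 95% confidence interval of -0.28 to 0.56 (limma adjusted p = 0.607). The direction turned to -0.01 without WT array 1, and the difference was 0.13 with Pparg ldi/+ array 3 alone. Its 4 other probe sets differed by 0.04 to 0.28, 2 of them dim. Ppargc1b, which acts on mitochondrial genes without being induced by cold, gave 526, 724 and 699 in WT and 438, 557 and 554 in Pparg ldi/+. Those groups overlapped as well, and the log2 difference was -0.31 (95% confidence interval -0.66 to 0.04, limma adjusted p = 0.160), or -0.20 with array 3 alone.

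The probe sets of Prdm16 disagreed with each other. The one read for the gene, 1429309_at, gave 190, 163 and 165 in WT and 156, 241 and 139 in Pparg ldi/+, a log2 difference of 0.01 (95% confidence interval -0.48 to 0.51, limma adjusted p = 0.972) with no settled direction, and -0.26 with Pparg ldi/+ array 3 alone. A dim probe set, 1440870_at, gave 154, 157 and 190 in WT and 79.3, 102 and 58.5 in Pparg ldi/+, with no overlap, a log2 difference of -0.84 and an adjusted p of 0.0510 in limma with no filter. Another dim one, 1429308_at, was higher in every Pparg ldi/+ array, at 68.2, 79.5 and 73.1 against 63.8, 41.7 and 67.1, a difference of 0.25. The fourth, 1440745_at, lay between 7.43 and 64.1 on all 6 arrays. The annotation used here does not say which transcripts of Prdm16 each probe set reads.

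Dio2 encodes the deiodinase that turns thyroxine into active thyroid hormone inside the cell, a step that brown fat needs for full heat production. Its brightest probe set, 1418938_at, read 126, 252 and 137 in WT and 112, 148 and 158 in Pparg ldi/+. Its mean log2 value of 7.51 was just above the filter level of 7.46. The Pparg ldi/+ mean of 7.41 lay under that level, so the WT values, with a mean of 7.62, carried the gene into the test. The groups overlapped, and WT array 2 was the highest of the 6 arrays in all 3 probe sets of Dio2, at 252 here, 204 in 1418937_at and 220 in 1426081_a_at. The log2 difference was -0.21 (95% confidence interval -0.81 to 0.39, limma adjusted p = 0.589). Without WT array 2 it was 0.06, and the gene was then too dim to be tested. With Pparg ldi/+ array 3 alone it was -0.05. The other 2 probe sets were dim and differed by -0.74 and -0.55.

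Elovl3, an elongase of very long fatty acids that is strongly cold-induced in brown fat, was dim. Its 1 probe set read 134, 82.2 and 64.8 in WT and 140, 137 and 175 in Pparg ldi/+. The groups did not overlap, but the highest WT value and the lowest Pparg ldi/+ value were 134 and 137. The log2 difference was 0.57, and it did not pass with no filter (limma 95% confidence interval -0.03 to 1.17, adjusted p = 0.190). It was 0.76 with Pparg ldi/+ array 3 alone.

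Cox7a1 encodes the muscle and brown fat form of a small subunit of cytochrome c oxidase, the last complex of the respiratory chain. Its signal was 469, 351 and 204 in WT and 1084, 1158 and 1018 in Pparg ldi/+. The Pparg ldi/+ arrays lay close together and far above the highest WT array, while the WT arrays themselves differed by more than 2-fold. Cox7a1 rose 3.14-fold (log2 difference 1.65, SE 0.239, 95% confidence interval 1.10 to 2.19, limma adjusted p = 0.000992). It also passed with Pparg ldi/+ array 3 alone, at 1.56 (limma adjusted p = 0.0350).

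Kcnk3 encodes a two-pore potassium channel, a background channel that sets the resting membrane potential and that brown adipocytes express. The probe set read for the gene, 1425341_at, gave 484, 711 and 481 in WT and 1331, 1095 and 1266 in Pparg ldi/+, again with no overlap. Kcnk3 rose 2.16-fold (log2 difference 1.11, SE 0.158, 95% confidence interval 0.75 to 1.47, limma adjusted p = 0.000871). It was 1.16 with Pparg ldi/+ array 3 alone (limma adjusted p = 0.0212). The second probe set, 1425342_a_at, gave 53.1, 194 and 19.9 against 292, 262 and 376 (log2 difference 1.76, limma adjusted p = 0.0181 in the fit of probe sets and 0.0469 in that with no filter). Its WT mean of 89 lay under the filter level, so the Pparg ldi/+ values carried it into the test and it adds no support to the first probe set. It dropped under the filter without WT array 2 or without any one Pparg ldi/+ array. Without WT array 1 it no longer passed the test, at 1.65 (limma adjusted p = 0.0587). The third, 1426058_a_at, was dim, with 56.6, 55.9 and 31.0 against 338, 234 and 175 and a difference of 1.79. Smooth muscle, another tissue that expresses this channel, was followed with 9 markers led by Acta2 and Tagln, whose sum was 16280 to 17564 in WT and 18914 to 19912 in Pparg ldi/+. Of the 7 tested, Tagln rose, 1.42-fold, and the others did not pass. Their part in the rise of Kcnk3 was not tested.

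**Figure D3:**
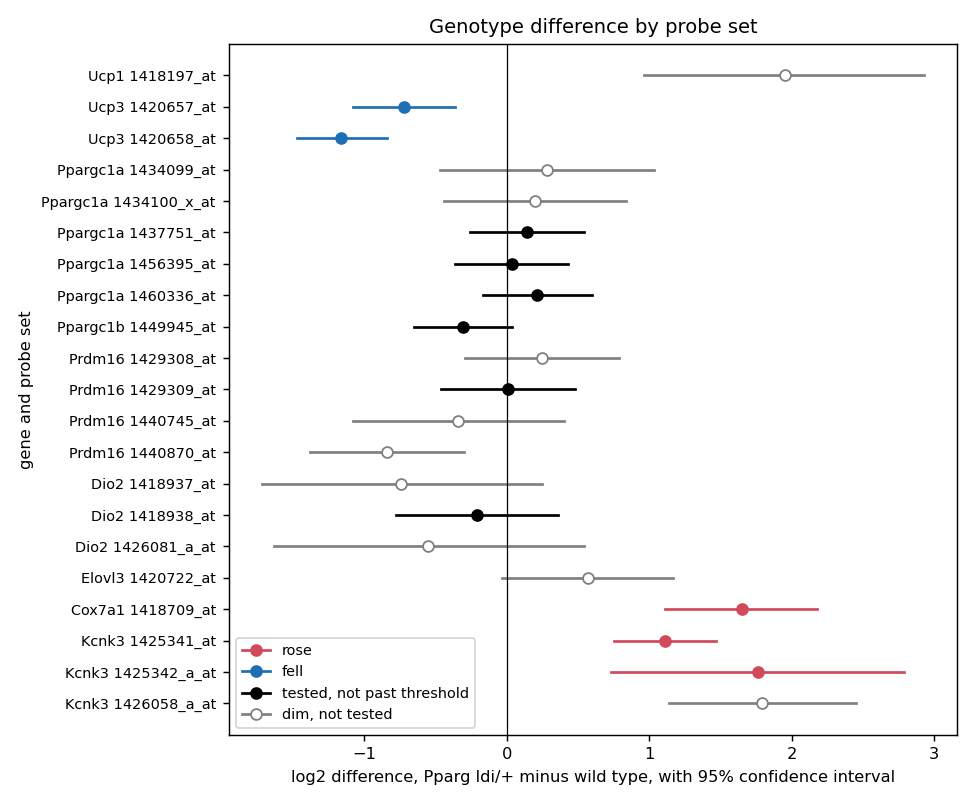
Log2 difference, Pparg ldi/+ minus WT, of each member probe set with its 95% confidence interval from limma, as filled points for tested probe sets and open grey points, with intervals from the fit without a filter, for dim ones. Cox7a1 at 1.65 and the Kcnk3 probe sets lie to the right of 0, both Ucp3 probe sets lie to the left, and the intervals of Ppargc1a include 0 in all 5 probe sets.

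Other markers of thermogenic adipocytes went both ways. Of 32 on the array beside the members, 20 were tested, and 4 rose and 5 fell, with a median log2 difference of -0.18, where the median of all tested genes was 0.0. This and each list count below stand against 16.3% of all tested genes that rose and 16.4% that fell (6.54% and 7.94% with Pparg ldi/+ array 3 alone), and the lists were not tested as groups. Rises were led by Epsti1 (3.89-fold, limma adjusted p = 0.000375), Fabp3 (2.49-fold, adjusted p = 0.0112) and Sp100 (1.81-fold, adjusted p = 0.0287). Epsti1 and Sp100 are markers of this list that interferon also induces, and Fabp3 is a fatty acid binding protein of heart and brown fat. The WT mean of Fabp3 was 114, under the filter level, and it was tested because of its Pparg ldi/+ values. Falls were led by Mtus1 (1.85-fold, limma adjusted p = 0.00102), Klhl13 (1.38-fold, adjusted p = 0.00243) and the amino acid transporter gene Slc36a2 (1.38-fold, adjusted p = 0.00411).

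Several well-known markers in that list were named after their values were seen. Cidea, a lipid droplet protein of brown fat, gave 828, 816 and 431 in WT and 466, 392 and 300 in Pparg ldi/+. It fell 1.69-fold (limma adjusted p = 0.0486) although the groups overlapped, and it did not pass with no filter (limma adjusted p = 0.0846). With Pparg ldi/+ array 3 alone the log2 difference of Cidea was -1.07, and it did not pass. Cox8b, another brown fat and muscle form of a cytochrome c oxidase subunit, gave 1578, 1426 and 765 in WT and 1438, 1695 and 1572 in Pparg ldi/+ and did not pass (log2 difference 0.37, limma adjusted p = 0.260). WT array 3 was the lowest WT array for Cidea, Cox8b and Cox7a1 alike. Ppara, the receptor of fatty acid oxidation, was too dim for the test. It gave 264, 246 and 278 in WT and 42.8, 86.1 and 83.7 in Pparg ldi/+, with no overlap. Its WT values lay above the filter level of 145, but its mean over all arrays did not. With no filter Ppara fell (log2 difference -1.55, limma adjusted p = 0.00305). Slc27a2, also too dim for the test, went the other way without overlap, with means of 74 in WT and 292 in Pparg ldi/+. With no filter Slc27a2 rose (log2 difference 1.8, limma adjusted p = 0.03). Zic1 and Lhx8, which mark classical brown fat, stayed at or under 34.0 on all 6 arrays, below the filter level. When Pparg ldi/+ was represented by array 3 alone, the log2 differences were 1.89 for Fabp3, 1.48 for Epsti1, -1.35 for Ppara and -1.1 for Mtus1. There Ppara cleared the filter only through its WT values and Fabp3 only through its Pparg ldi/+ value, so these 2 add no support.

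Among partners of the PGC-1 coactivators in mitochondrial biogenesis, 3 of 24 tested genes rose and 3 fell, with a median of -0.05. Nfe2l2, a regulator of antioxidant genes, rose 1.32-fold, Mef2c, a muscle transcription factor, 1.31-fold and Pprc1, the third PGC-1 family member, 1.28-fold. Polg, the mitochondrial DNA polymerase gene, fell 1.24-fold, the receptor gene Ppard 1.34-fold and the transcription factor gene Yy1 1.19-fold. With array 3 alone against WT, limma called 0 of them (2 at an unadjusted p under 0.05), and the median was -0.12.

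Among partners of PRDM16 and repressors of browning, 2 of 24 tested genes rose and 6 fell, with a median of -0.17. Nrip1, the corepressor RIP140 that restrains Ucp1 in white fat, fell 2.94-fold, from 3912 ± 294 to 1321 ± 240 (SD, n = 3; limma adjusted p = 4.2e-05). Zfp423, which keeps white adipocytes from turning beige, fell 2.19-fold and Foxo1 fell 1.73-fold. The rises were Tgfb1 (1.71-fold) and Smad3 (1.53-fold), the ligand and effector of a pathway that opposes browning. Nrip1, Zfp423 and Foxo1 fell and Smad3 rose also with array 3 alone.

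Genes of the beta-adrenergic and cAMP pathway, which activates thermogenesis, fell in 8 and rose in 4 of 25 tested, where 32.7% of all tested genes passed in either direction, with a median of -0.20. The adenylate cyclase genes split: Adcy5 fell 5.49-fold, from 1859 ± 160 to 313 ± 35 (SD, n = 3; limma adjusted p = 3e-06), Adcy6 fell 2.06-fold, and Adcy7, a form of immune cells, rose 1.96-fold. Pde3b, which breaks down cAMP when insulin acts, fell 3.82-fold. Rgs2, a brake on G protein signalling, rose 1.85-fold and the kinase gene Mapkapk2 rose 1.22-fold. The beta-adrenergic receptor genes had no probe set under their single symbols and were not analysed here. The counts were 5 falls and 2 rises among the 25 when array 3 alone stood for Pparg ldi/+.

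In the thyroid hormone list, into which Dio2 feeds, 4 of 10 tested genes fell and the others did not pass, with a median of -0.23. Hr, a corepressor and target of the thyroid hormone receptor, fell 3.52-fold, the heterodimer partner gene Rxra 1.88-fold, the oxysterol receptor gene Nr1h3 1.60-fold and the coactivator gene Ncoa1 1.37-fold. The receptor genes Thra and Thrb did not pass, with log2 differences of -0.16 and -0.30, nor did Thrsp, a lipogenic target, at 0.19. Array 3 alone gave 3 falls among these 10.

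Cycles that use energy without uncoupling protein were represented by 13 tested genes, of which 4 rose and the others did not pass, with a median of 0.19. Gatm, the first enzyme of creatine synthesis, rose 3.14-fold (limma adjusted p = 2.6e-05), from 412, 347 and 325 in WT to 1330, 1140 and 1127. Ckb, the creatine kinase of the creatine cycle, rose 1.57-fold, from 2437, 2548 and 3690 to 4603, 4401 and 4423, with no overlap. Gpd2, of the glycerol phosphate shuttle, rose 1.28-fold and the ADP/ATP carrier gene Slc25a5 rose 1.27-fold. In array 3 alone Gatm rose and Atp2a3, a calcium pump gene, fell, and the median was 0.24.

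The relatives of the members showed how far each change was shared within its family. Of 13 other tested genes named for cytochrome c oxidase subunits, the subunit-like gene Cox7a2l rose, 1.31-fold, and the others did not pass, with a median of 0.05. Cox7a2, the widely expressed counterpart of Cox7a1, had a log2 difference of 0.05 at a WT signal of 16371 ± 752 (SD, n = 3). Among the 4 elongase genes tested beside Elovl3, Elovl6 rose 1.88-fold and Elovl1 rose 1.42-fold. Of 3 other two-pore channel genes tested, Kcnk6 rose 1.78-fold and Kcnk2 fell 1.77-fold. Beside Prdm16, Mecom, its closest paralog, fell 1.93-fold and Prdm1, a regulator of lymphocytes and macrophages, rose 1.62-fold among 6 tested. Of 4 carriers tested that resemble the uncoupling proteins, Slc25a1 and Slc25a10 fell, 1.5-fold and 1.44-fold. With Pparg ldi/+ array 3 alone, Elovl6, Elovl1, Kcnk6 and Mecom passed in the same direction, Kcnk13 rose, and Cox7a2l, Kcnk2, Prdm1, Slc25a1 and Slc25a10 did not pass.

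**Figure D4:**
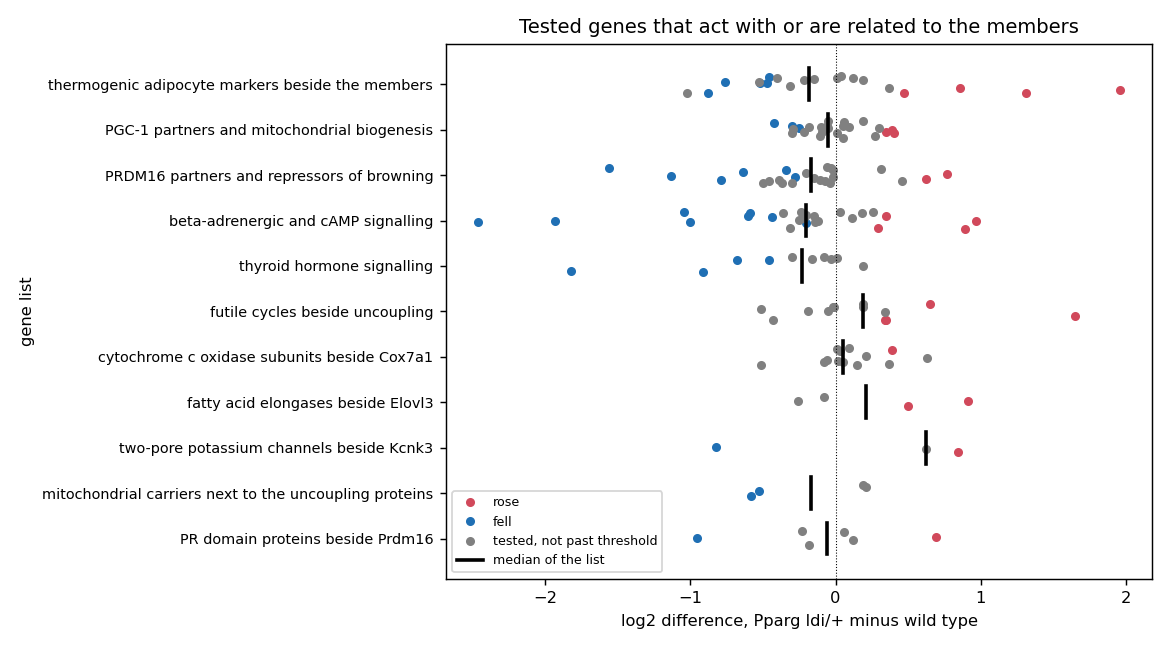
Log2 differences, Pparg ldi/+ minus WT, of the tested genes in 11 lists that act with the members or are related to them, 1 point per gene, in red where it rose, in blue where it fell and in grey where it did not pass, with the median of each list as a black bar. Medians lie between -0.23 for thyroid hormone signalling and 0.62 for the 3 two-pore potassium channels.

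Across the 6 arrays, the tested genes whose log2 values followed Ucp1 most closely were Tbpl1 (Pearson r = 0.997), Rsl1d1 (0.991), Msrb1 (0.986), Hvcn1 (0.986) and Orai2 (0.985). For Cox7a1 they were Exosc5 (0.998), B4galnt1 (0.998), Tigar (0.997), Nfil3 (0.997) and Dcaf13 (0.997). An r over 0.95 was reached by 93 of 11194 genes for Ucp1 and by 448 for Cox7a1. The points share the split between the genotypes, and these values describe 6 arrays only.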

How the data were processed

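The authors deposited linear intensities, a single value for each probe set on each array. The submitters' processing notes name MAS5 for 2 of the 6 samples; version, scaling target and detection calls: not given in the sources used here. Deposited medians were 59.2 to 69.4 per array. Genotype and number come from the titles. Each array was scaled here to a mean of 500 after trimming 2% at each end, 32 was added and log2 taken, which understates changes of dim genes. Controls (64 of 45101 probe sets) were removed, and 34945 had a single symbol, updated by gene number for 34741. A gene was read from its brightest probe set, x_at sets aside. Genes at or above the median brightness were tested with limma 3.58.1 in R 4.3.3 (trended eBayes, two-sided, Benjamini-Hochberg, threshold 0.05), and all probe sets likewise; the code was tested on simulated data. Rose and fell mean past that threshold. P-values measure the spread between 3 mice per group. Members and lists were chosen with earlier results of these data known. Named were all members, every called gene of a list (the 3 rises and 3 falls of smallest p where over 6 were called), the 2 brightest markers of each cell list and the 5 genes most like Ucp1 and Cox7a1. Others were chosen after their values were seen.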

Additional observations from a re-analysis of the deposited data

How the results depend on the processing

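Cox7a1 and Kcnk3 kept their direction and stayed past the threshold under each of the 18 alternatives, with log2 differences of 1.35 to 1.89 and 1.02 to 1.56. Ucp3 lay between -0.94 and -0.55 and lost its call with Pparg ldi/+ array 3 alone (-0.64), where its second probe set kept it (-1.11). That comparison, of 1 array with 3 and with the lone array assumed to vary like the others, called 1616 genes where 3668 were called with all arrays, 2726 probe sets instead of 6531, 25 of the genes in the related lists instead of 52, and 3 member probe sets instead of 5. Its smaller number of arrays is part of its construction. With all arrays, the 52 stood among 145 tested genes of the related lists, where 32.7% of all tested genes were called. Without single arrays, 3 of 6 to 7 tested member genes and 4 to 5 of 9 to 11 tested member probe sets were called. The same runs called 2737 to 3346 of 11169 to 11209 tested genes and 4831 to 5882 of 22519 tested probe sets. These counts are not a result about the members as a group. Differences near 0 changed sign: Prdm16 was at -0.01 with quantile normalisation, -0.19 without Pparg ldi/+ array 2, -0.02 and -0.01 without WT arrays 2 and 3, -0.26 with array 3 alone and -0.23 with the mean of its probe sets. Without single arrays, Prdm16 lay between -0.19 and 0.15, Ppargc1a between -0.01 (without WT array 1) and 0.31 (without Pparg ldi/+ array 2, where another of its probe sets, 1460336_at, was the brightest), and Dio2 between -0.37 and 0.06 (without WT array 2). The cause of these was not tested. Same-numbered arrays showed no shared deviation, with correlations of -0.112, -0.0782 and -0.0651. These values cannot show whether the title numbers follow litters. With the replicate block, 3 of 7 tested member genes and 5 of 11 tested member probe sets were called. Over the array it called 3166 of 11201 tested genes and 5697 of 22519 tested probe sets. Ucp1 and Elovl3 lay under the filter in every alternative that kept it.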
